A study of Rattus norvegicus with 8 samples.

Results

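T cell and cytotoxic lymphocyte genes were followed in the colon of rats with and without dextran sulfate sodium (DSS) colitis on 3 dietary fats. The set holds 35 gene symbols, and its probes are those whose gene name on the array equals 1 of these symbols. Of the 35, 34 have a probe, 40 probes in all among 30367 on the array, and Eomes is not analysed here. The set was read in 3 groups: 18 general T cell genes, 7 genes of regulatory and helper T cells, and 10 cytotoxic genes, of which 9 have a probe. Colon RNA came from female Wistar rats aged 14 weeks after 8 weeks on their diet. The healthy rats ate sunflower oil and received no DSS. The 3 colitis groups received DSS at 5%, which damages the colon epithelium, for 7 days. They ate sunflower oil (n-6 colitis, named for its n-6 fatty acids), alpha-linolenic acid, an n-3 fatty acid of plants (ALA colitis), or fish oil rich in eicosapentaenoic and docosahexaenoic acid (fish oil colitis). There were 6 healthy rats and 10 in each colitis group, and RNA of 6 rats was pooled for the arrays. No colitis group without a dietary oil and no healthy group on ALA or fish oil is analysed here, so the effect of an n-3 oil can be read only in colitic colon.

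T cells recognise antigen through a receptor whose signal is passed on by the CD3 chains, and then by the kinases Lck and Zap70 and the adaptor Lat. Regulatory T cells, marked by the transcription factor Foxp3, restrain inflammation and carry Ctla4 and receptors of the TNF receptor family. Cytotoxic T cells and natural killer cells kill by releasing perforin and granzymes. The colon holds all of these as scattered cells within and below the epithelium and as lymphoid follicles, in which B cells and T cells lie together.

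Each group had 2 arrays (n = 2 throughout), and that number limits the precision. Both healthy arrays come from the same 6 rats. For a colitis group it is not given whether its arrays hold 1 pool or separate ones, so every p-value rests on a spread among arrays that may be technical. All arrays lay on 1 slide. Row 1 held ALA and healthy and row 2 held n-6 and fish oil, while columns 1 and 2 held ALA and fish oil and columns 3 and 4 held n-6 and healthy. In every comparison the row or the column therefore cannot be told apart from the group. The 75th percentile of log2 signal ran from 6.85 to 8.78, with fish oil replicate 1 the dimmest array, and 54% (fish oil replicate 1) to 70.1% of probes were well above background. The fish oil replicate 1 array was also the only 1 of 8 that correlated best with its own replicate. Levels below are log2 signal minus the 75th percentile of the array, so 0 is the level that 75% of probes stay under. They compare arrays for 1 probe and not 1 gene with another.

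The probes that carry the main results are shown first, since each level rests on 60 bases. They are given 5′ to 3′ as in the array's own annotation, with positions on the rn4 build, and no base is marked by capitals because nothing within a probe was compared. The set was limited to probes with an open reading frame along their whole length, for members that are named repeatedly below.
Cd3e probe, chr8:47950313-47950372, minus strand: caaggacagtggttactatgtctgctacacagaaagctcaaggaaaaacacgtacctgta
Foxp3 probe, chrX:26952215-26952274, minus strand: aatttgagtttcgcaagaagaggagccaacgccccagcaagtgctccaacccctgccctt
Tnfrsf18 probe, chr5:172869396-172870254, plus strand: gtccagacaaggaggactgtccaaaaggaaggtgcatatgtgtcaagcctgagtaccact
Ctla4 probe, chr9:59501148-59501207, plus strand: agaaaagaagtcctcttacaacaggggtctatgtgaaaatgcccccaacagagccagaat
Prf1 probe, chr20:28663319-28663378, plus strand: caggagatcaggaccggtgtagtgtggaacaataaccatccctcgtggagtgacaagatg
Gzmk probe, chr2:44589378-44589437, minus strand: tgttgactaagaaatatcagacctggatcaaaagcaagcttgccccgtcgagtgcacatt
Gzma probe, chr2:44490165-44490224, minus strand: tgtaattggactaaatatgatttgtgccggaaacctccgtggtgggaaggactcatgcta
Gzmb probe, chr15:35196479-35196538, minus strand: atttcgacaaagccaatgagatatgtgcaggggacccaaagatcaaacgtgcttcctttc
The Tnfrsf18 probe spans 859 bases of the genome for its 60 bases, as do the probes of Cd5, Lck and Lat over 827, 2108 and 2689 bases, so these 4 lie across a gap in the genomic alignment. The others shown are contiguous in the genome. Cross-hybridisation was not tested. Rats have several close relatives of granzyme B and of the killer cell lectin receptors, so signal assigned to Gzmb, Klrd1 and Klrk1 can include theirs.

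Several members are neighbours in the genome. On rn4 the probes of Tnfrsf4 and Tnfrsf18 lie 10.4 kb apart on chromosome 5. Those of Cd3g, Cd3d and Cd3e follow each other on chromosome 8 at 12.2 and 13.6 kb. The probes of Gzma and Gzmk lie 99.2 kb apart on chromosome 2, and those of Cd5 and Cd6 73.5 kb apart on chromosome 1.

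RefSeq promoters of the GRCr8 assembly (250 bases before to 50 after the start, 300 in all) were found for 28 of the 35 members, with none for Ccr7, Cd4, Cd6, Cd8b, Il2rb, Klrd1 and Tnfrsf18. They were searched on both strands for short core motifs of factor families known in lymphocytes. The motif TGTGGT, the core of RUNX factors, occurred in 12 of 28 member promoters (42.9%), against 16.9% of all 27457 promoters of that length. It was in 7 of 8 cytotoxic promoters, 5 of 14 general T cell promoters and 0 of 6 regulatory and helper promoters. The ETS motif AGGAAGT occurred in 32.1% of member promoters against 8.23% of all, with 6 of its 9 promoters among the general T cell genes. The E protein motif CAGGTG occurred in 39.3% against 18.7%, and the TCF and LEF motif CTTTGA in 28.6% against 15.9%. The GATA motif AGATAA occurred in 3.57% against 11.3%, and the T-box motif GGTGTGA in 7.14% against 3.81%. These matches describe letters in a window and are not shown to be sites. The 4 promoters of the granule genes are printed because their group means had different orders. Prf1 and Gzmk were highest in mean in n-6 and lowest in fish oil colitis, and Gzma and Gzmb highest in fish oil colitis and lowest in healthy colon. On single arrays Prf1 and Gzmk differed, as fish oil stood apart for Prf1 and n-6 for Gzmk. Every match of the 6 motifs is in capitals, in either orientation.
Prf1 promoter, chr20:29788790-29789089, plus strand: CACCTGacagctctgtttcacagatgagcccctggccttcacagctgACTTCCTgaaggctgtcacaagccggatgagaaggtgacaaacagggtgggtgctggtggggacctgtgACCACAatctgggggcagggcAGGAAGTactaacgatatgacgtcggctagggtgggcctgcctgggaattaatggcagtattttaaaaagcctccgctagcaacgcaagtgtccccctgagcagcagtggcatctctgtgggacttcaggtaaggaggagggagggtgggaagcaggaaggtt
Gzmk promoter, chr2:46581966-46582265, minus strand: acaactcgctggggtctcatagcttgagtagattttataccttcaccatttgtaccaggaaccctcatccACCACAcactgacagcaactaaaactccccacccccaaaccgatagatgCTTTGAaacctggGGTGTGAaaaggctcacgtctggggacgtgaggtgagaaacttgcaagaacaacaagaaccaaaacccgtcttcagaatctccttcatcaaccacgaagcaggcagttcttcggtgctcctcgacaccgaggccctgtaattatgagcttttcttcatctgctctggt
Gzma promoter, chr2:46485647-46485946, minus strand: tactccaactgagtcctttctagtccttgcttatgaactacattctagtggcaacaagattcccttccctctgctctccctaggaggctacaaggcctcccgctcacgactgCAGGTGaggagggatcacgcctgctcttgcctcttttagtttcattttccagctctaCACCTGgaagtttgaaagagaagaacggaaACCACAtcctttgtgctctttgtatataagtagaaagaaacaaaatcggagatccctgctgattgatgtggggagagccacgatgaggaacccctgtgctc
Gzmb promoter, chr15:34462420-34462719, minus strand: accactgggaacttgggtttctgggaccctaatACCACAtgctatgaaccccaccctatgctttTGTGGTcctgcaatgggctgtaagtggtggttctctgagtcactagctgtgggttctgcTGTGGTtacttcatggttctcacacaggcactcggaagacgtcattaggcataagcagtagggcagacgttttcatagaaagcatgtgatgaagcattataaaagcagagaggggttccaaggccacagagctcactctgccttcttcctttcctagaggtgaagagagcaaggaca
All 4 hold the RUNX core, and Gzmb holds 3 matches, all of them of that core. In Gzmk the TCF and LEF motif and the T-box motif lie near each other, and no matches overlap in the 4 windows.

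Of the 34 members with a probe, 30 passed the filter, which asked that both arrays of some group be well above background. The 4 that did not pass were Cd4, Cd2, Cd28 and Ccr7, all general T cell genes. Cd28 was well above background on 0 arrays, Cd4 and Ccr7 on 1 and Cd2 on 3. Cd4 is the co-receptor of helper T cells, so its absence leaves the helper lineage without its defining marker here. Ctla4 and Gata3 passed only through the ALA arrays, and Cd8b only through the healthy arrays. Signal in that group was thus a condition of their entry. The 4 CD3 chains and both Cd8 chains passed, and so did Foxp3, Prf1 and the 3 granzymes listed. The tissue thus carries the defining markers of T cells and of cytotoxic cells at measurable levels.

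**Figure D1:**
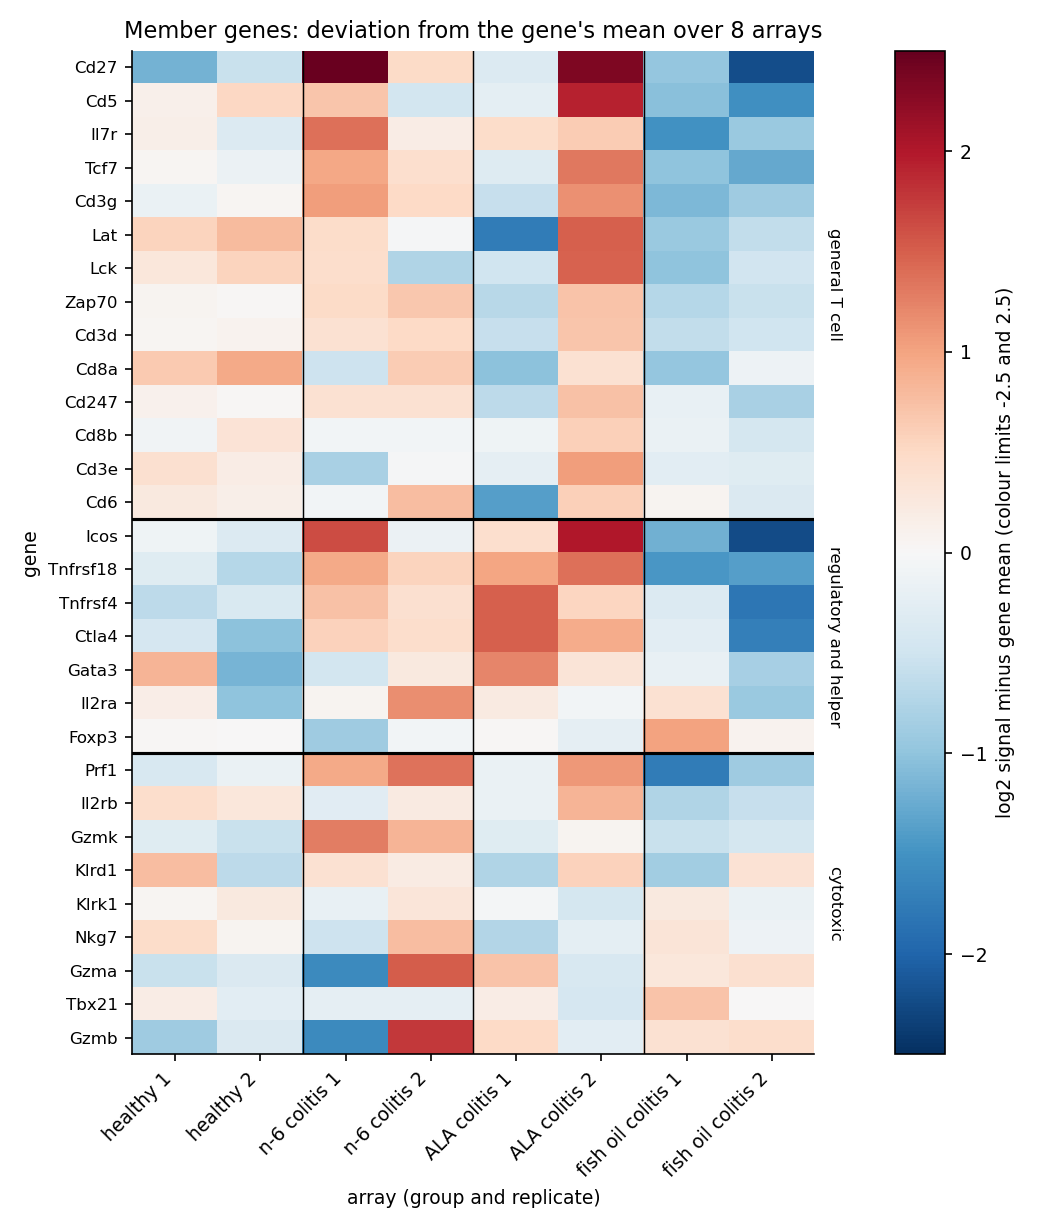
Deviation of each of the 30 members that passed from its own mean over the 8 arrays, on the log2 scale (colour limits -2.5 and 2.5), with arrays in columns by group and genes in rows by group of members. In the general T cell block the columns of ALA replicate 1 and both fish oil arrays are mostly blue and that of ALA replicate 2 is red for all 14 genes, while in the cytotoxic block n-6 replicate 2 is above the gene mean for 8 of 9 genes.

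Among general T cell genes the fish oil group was the lowest for most members. It had the lowest group mean for 12 of 14 general T cell genes, 5 of 7 regulatory and helper genes and 4 of 9 cytotoxic genes. The n-6 group had the highest mean for 8 of the 14 general genes, and the ALA group for 4. In bulk colon RNA, fewer T cells and less of these RNAs per T cell cannot be told apart.

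The CD3 chains carry the T cell receptor signal. Cd3g had levels of 0.42 and 0.63 in healthy colon, 1.63 and 1.06 in n-6 colitis, 0.0084 and 1.71 in ALA colitis, and -0.55 and -0.31 in fish oil colitis. Both fish oil arrays lay below the other 6. Cd3d, at 1.74 and 1.79 in healthy colon, was at 2.08 and 2.20 in n-6 colitis, 1.13 and 2.40 in ALA colitis, and 1.08 and 1.20 in fish oil colitis. Here ALA replicate 1 lay within the fish oil range. Cd247, the zeta chain, was at 2.20 and 2.12 in healthy colon, 2.47 and 2.48 in n-6 colitis, 1.44 and 2.82 in ALA colitis, and 1.91 and 1.28 in fish oil colitis. Cd3e was different, with its lowest level on n-6 replicate 1: -2.41 and -2.63 in healthy colon, -3.63 and -2.84 in n-6 colitis, -3.03 and -1.75 in ALA colitis, and -3.07 and -3.11 in fish oil colitis. The n-6 and fish oil arrays overlapped for Cd3e, the only CD3 chain for which they did.

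Cd8a and Cd8b form the co-receptor of cytotoxic T cells. Cd8a was higher in healthy colon, at -1.33 and -1.05, than on any colitis array, with -2.51 and -1.36 in n-6 colitis, -3.01 and -1.60 in ALA colitis, and -2.96 and -2.12 in fish oil colitis. The margin between healthy replicate 1 and n-6 replicate 2 was small. Cd8b ranged only from -4.96 on fish oil replicate 2 to -3.92 on ALA replicate 2.

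The signalling genes of the receptor gave a similar order. Zap70 was at 0.46 and 0.42 in healthy colon, 0.87 and 1.06 in n-6 colitis, -0.31 and 1.11 in ALA colitis, and -0.33 and -0.17 in fish oil colitis. The fish oil arrays lay below the n-6 and healthy arrays, and ALA replicate 1 lay within the fish oil range. Lat ran from -3.35 (ALA replicate 1) to -0.088 (ALA replicate 2), so that the ALA pair spanned the whole range of the gene. Lck, with a range from -4.36 on fish oil replicate 1 to -1.89 on ALA replicate 2, overlapped between the fish oil and n-6 groups.

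Tcf7, a transcription factor of naive and memory T cells, separated the fish oil arrays from the other 6. It was at 0.36 and 0.17 in healthy colon, 1.28 and 0.74 in n-6 colitis, 0.0011 and 1.64 in ALA colitis, and -0.69 and -0.96 in fish oil colitis. Il7r, the receptor for the T cell survival factor interleukin-7, was at -3.53 and -4.01 in healthy colon, -2.29 and -3.48 in n-6 colitis, -3.22 and -3.04 in ALA colitis, and -5.18 and -4.59 in fish oil colitis. Here too both fish oil arrays were below all others, but 1 of them was not well above background. A further Il7r probe, well above background on 0 fish oil and 0 n-6 arrays, did not separate these groups (-5.76 and -7.08 against -5.98 and -5.20), and was highest on ALA replicate 2 (-4.00).

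Cd27, a co-stimulatory receptor that activated B cells can also carry, had the widest range of the general genes. It was at -2.95 and -2.33 in healthy colon, 0.70 and -1.28 in n-6 colitis, -2.11 and 0.56 in ALA colitis, and -2.74 and -3.97 in fish oil colitis. Its highest values were on n-6 replicate 1 and ALA replicate 2, the arrays on which B cell genes were highest. Cd5, which T cells share with a class of B cells, was at -3.95 and -3.56 in healthy colon, -3.39 and -4.53 in n-6 colitis, -4.32 and -2.15 in ALA colitis, and -5.13 and -5.60 in fish oil colitis, where it was not well above background. Cd6, an adhesion receptor of T cells, is measured by 3 probes. On the brightest probe it was lowest on ALA replicate 1 (0.89) and highest on n-6 replicate 2 (3.04). A second probe was well above background on 0 fish oil and 0 n-6 arrays, so its means there (-5.45 and -4.95) give no order. On 1 more, well above background on all 8 arrays, they were -1.87 and -1.94. The last 2 are shown because they lie in different parts of the gene and differ in brightness.
Cd6 second probe, chr1:213291685-213291744, minus strand: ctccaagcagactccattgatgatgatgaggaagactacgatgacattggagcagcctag
Cd6 last probe, chr1:213294375-213294434, minus strand: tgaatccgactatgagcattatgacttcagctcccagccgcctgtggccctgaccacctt

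The ALA pair was split in the general genes. ALA replicate 1 was below replicate 2 for 14 of 14 general T cell genes, with a median gap of -1.53, while over all genes the median gap of that pair was 0.18. The fish oil pair was evenly divided, with replicate 1 higher for 7 of 14 and a median gap of -0.044. ALA replicate 2 was the highest of the 8 arrays for 10 of the 14 genes. Every comparison of ALA colitis therefore rests, for these genes, on 2 unlike arrays.

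Regulatory and helper genes had another order, in which ALA colitis had the highest mean for 5 of 7. Of these 5, Ctla4 and Gata3 passed the filter only through the ALA arrays, which favours a high ALA mean. Tnfrsf18 encodes GITR, a TNF receptor family member abundant on regulatory T cells. It was at -4.56 and -4.97 in healthy colon, -3.32 and -3.71 in n-6 colitis, -3.27 and -2.89 in ALA colitis, and -5.73 and -5.64 in fish oil colitis. The groups did not overlap in any of the 6 pairs of groups, although both fish oil arrays and 1 healthy array were not well above background. Its neighbour Tnfrsf4, which encodes the related co-stimulatory receptor of activated T cells, was at -1.03 and -0.76 in healthy colon, 0.35 and 0.013 in n-6 colitis, 1.11 and 0.16 in ALA colitis, and -0.73 and -2.19 in fish oil colitis. The healthy and fish oil arrays overlapped and all 4 lay below the other colitis arrays. The brightest array for Tnfrsf4 was ALA replicate 1, unlike for the general T cell genes.

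Ctla4, an inhibitory receptor of regulatory and activated T cells, was at -5.90 and -6.51 in healthy colon, -4.90 and -5.03 in n-6 colitis, -3.97 and -4.56 in ALA colitis, and -5.75 and -7.19 in fish oil colitis. It was well above background on 3 of 8 arrays, both ALA arrays and 1 n-6 array. A second Ctla4 probe, which did not pass the filter, was also highest on the ALA arrays, at -4.60 and -4.67. Icos, the inducible co-stimulator of helper T cells, was at -4.58 and -4.82 in healthy colon, -2.85 and -4.62 in n-6 colitis, -4.06 and -2.48 in ALA colitis, and -5.68 and -6.70 in fish oil colitis. It was not well above background on either fish oil array, and those arrays lay below the other 6.

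Foxp3, which defines regulatory T cells, did not share this order. It was at -2.04 and -2.05 in healthy colon, -2.95 and -2.13 in n-6 colitis, -2.03 and -2.28 in ALA colitis, and -1.05 and -1.98 in fish oil colitis. Fish oil colitis had the highest and n-6 colitis the lowest mean, and 6 of 8 arrays lay between -2.28 and -1.98. Il2ra, the high-affinity interleukin-2 receptor chain, was highest on n-6 replicate 2 (-3.61) and lowest on healthy replicate 2 (-5.79). Gata3, the factor of type 2 helper T cells, ranged from -6.71 on healthy replicate 2 to -4.34 on ALA replicate 1 and was not well above background in n-6 or fish oil colitis.

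Cytotoxic genes showed different patterns. The array n-6 replicate 2 was above the gene mean for 8 of the 9 (median deviation 0.76) and was the highest of the 8 arrays for 5, whereas n-6 replicate 1 was above it for 3. Prf1, which encodes the pore-forming protein perforin, was at -3.18 and -2.95 in healthy colon, -1.84 and -1.42 in n-6 colitis, -2.95 and -1.70 in ALA colitis, and -4.53 and -3.67 in fish oil colitis. The fish oil arrays lay below all others. Gzmk, a granzyme of memory CD8 T cells, was at -4.13 and -4.39 in healthy colon, -2.55 and -2.98 in n-6 colitis, -4.13 and -3.77 in ALA colitis, and -4.39 and -4.27 in fish oil colitis. Only the n-6 arrays stood apart for Gzmk, and both lay above the other 6.

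Gzma and Gzmb did not follow Gzmk. Gzma, at 0.93 and 1.11 in healthy colon, was at -0.12 and 2.99 in n-6 colitis, 2.20 and 1.08 in ALA colitis, and 1.77 and 1.87 in fish oil colitis. Gzmb was at -0.52 and 0.018 in healthy colon, -1.22 and 2.14 in n-6 colitis, 0.87 and 0.11 in ALA colitis, and 0.76 and 0.81 in fish oil colitis. For both genes the n-6 pair held the lowest and the highest of the 8 arrays, and both fish oil arrays lay above both healthy arrays. A second Gzmb probe gave the same order of the n-6 pair, at -1.71 and 1.43.

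Tbx21, the T-bet factor of interferon-producing lymphocytes, was at 2.72 and 2.27 in healthy colon, 2.30 and 2.31 in n-6 colitis, 2.71 and 2.11 in ALA colitis, and 3.24 and 2.53 in fish oil colitis. Nkg7, a granule membrane protein, ranged from -1.79 (ALA replicate 1) to -0.29 (n-6 replicate 2). Klrd1, which encodes a chain of a killer cell receptor, ranged from -5.24 to -3.60, with the healthy replicates at -3.60 and -5.03. Klrk1, the activating receptor of killer cells, stayed between -1.89 and -1.13 on its brighter probe. Its other probe, well above background on 1 fish oil array, was lowest on the fish oil arrays (-5.05 and -5.28). That probe was highest in n-6 colitis (-3.67 and -2.94). Only this dimmer probe separated fish oil from n-6 colitis, as the brighter one had means of -1.405 and -1.372 and overlapping arrays. Il2rb, the interleukin-2 and interleukin-15 receptor chain of killer and memory T cells, was at -1.22 and -1.38 in healthy colon, -1.93 and -1.43 in n-6 colitis, -1.82 and -0.81 in ALA colitis, and -2.40 and -2.23 in fish oil colitis.

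**Figure D2:**
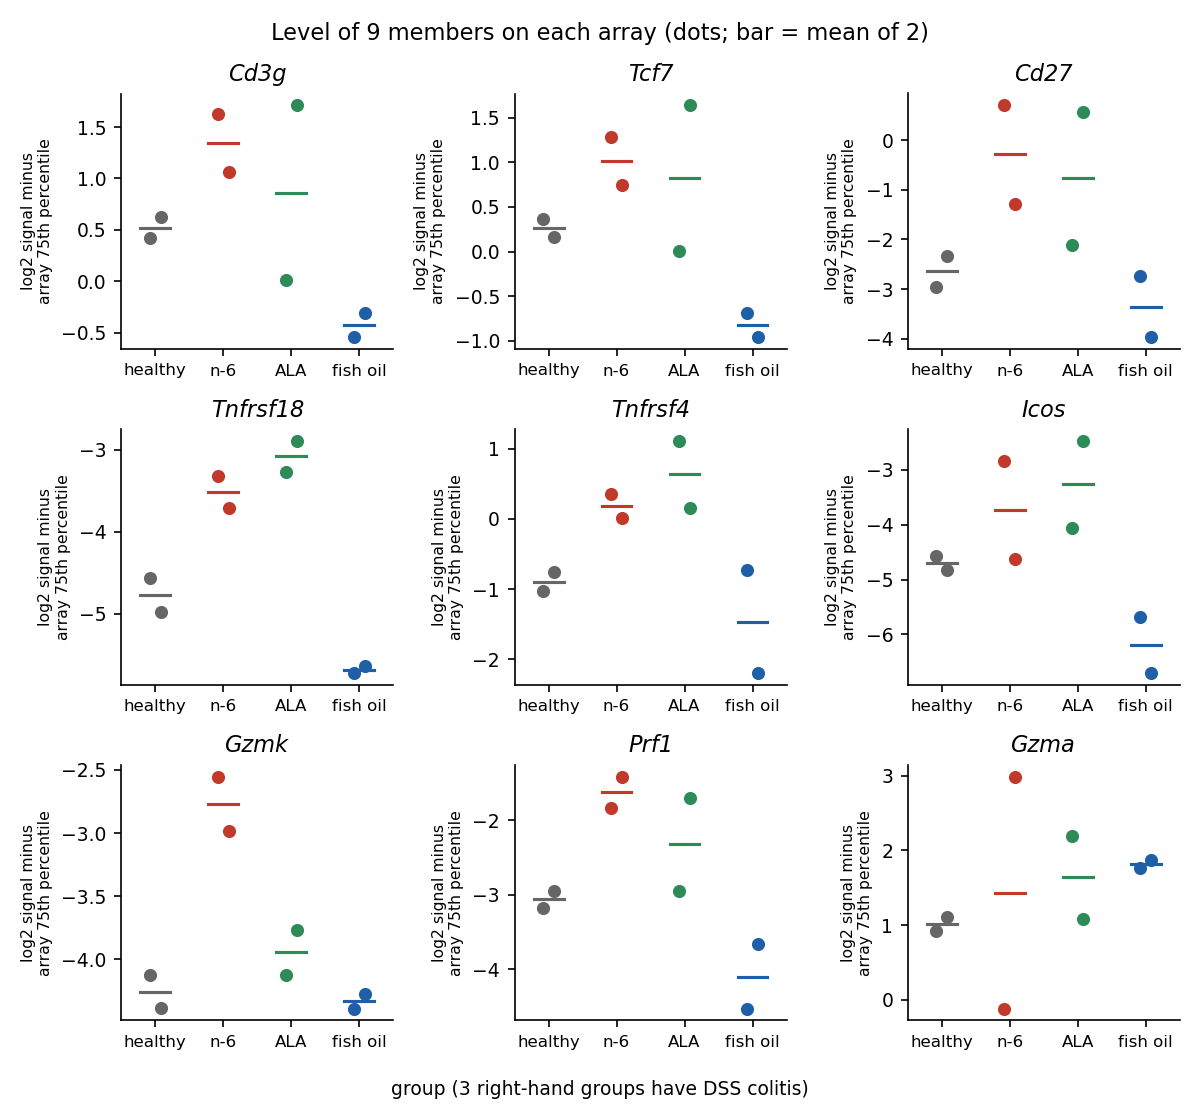
Level on each array (dots) and group mean (bar) of 9 members, as log2 signal minus the array's 75th percentile, for healthy colon and the 3 colitis groups. The fish oil dots are the lowest for Cd3g, Tcf7, Tnfrsf18, Icos and Prf1, the n-6 dots are the highest for Gzmk, and for Gzma the n-6 dots lie at both ends, at -0.12 and 2.99.

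Fish oil colitis against n-6 colitis asks how the long-chain n-3 diet differed from the n-6 diet in colitic colon. Most general T cell and co-stimulatory genes were lower in mean with fish oil, and Foxp3, Tbx21, Gzma, Gzmb and Cd3e were higher in mean. The median difference was -0.996 over the 14 general genes, -1.50 over the 7 regulatory and helper genes, and -0.034 over the 9 cytotoxic genes, against 0.0084 over all 18171 genes tested. Over 19 alternative settings these medians ran from -1.19 to -0.47, from -2.13 to 0.26 and from -0.88 to 0.21. The regulatory and helper median was 0.26 with normexp, and the cytotoxic median was -0.88 without n-6 replicate 1. None of the 30 members passed limma's test after Benjamini-Hochberg adjustment over all genes, where 0.0385% of genes (7) did. At an unadjusted p under 0.05 there were 11 members lower and 1 higher, where 6.01% of all genes were lower and 6% higher. The arrays did not overlap for 17 members that were lower, 10 of them general T cell genes, and for 2 that were higher, against 23.6% and 23.1% of all genes. Of the 30 members 5 had a difference above 0, against 50.5% of all genes.

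The smallest adjusted p among members was that of Tnfrsf18, lower by a log2 difference of -2.17 (SE 0.32, limma adjusted p = 0.286). As its fish oil arrays were not well above background, the n-6 signal was at least 2.64-fold higher. Such a bound divides the mean of the brighter group by a floor for the dimmer one. On each array the floor is that array's lowest signal well above background, or the probe's own where higher. The bound holds for the scanner software's processed signal and allows neither for the spread between arrays nor for another background method. Prf1 differed by -2.47 (SE 0.50) and Gzmk by -1.57 (SE 0.31), both with a limma adjusted p of 0.393. Il7r differed by -2 (SE 0.46, limma adjusted p = 0.407). Tcf7, Icos, Cd3g, Cd27, Tnfrsf4 and Zap70 had that same limma adjusted p of 0.407, with differences of -1.83, -2.46, -1.77, -3.06, -1.65 and -1.22. Icos, well above background on only 1 of the n-6 arrays, was by the same bound at least 2.27-fold higher in n-6 colitis. Ctla4 differed by -1.50 (limma adjusted p = 0.407), being well above background on 1 n-6 array. Foxp3 differed in the other direction by 1.02 (95% interval 0.0017 to 2.04, limma adjusted p = 0.413). With normexp background correction in place of the scanner software's own, the member median was 0.025 and the difference of Tnfrsf18 0.068, beside a shift of all genes to 0.23. The differences of dim members thus move with the background method.

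**Figure D3:**
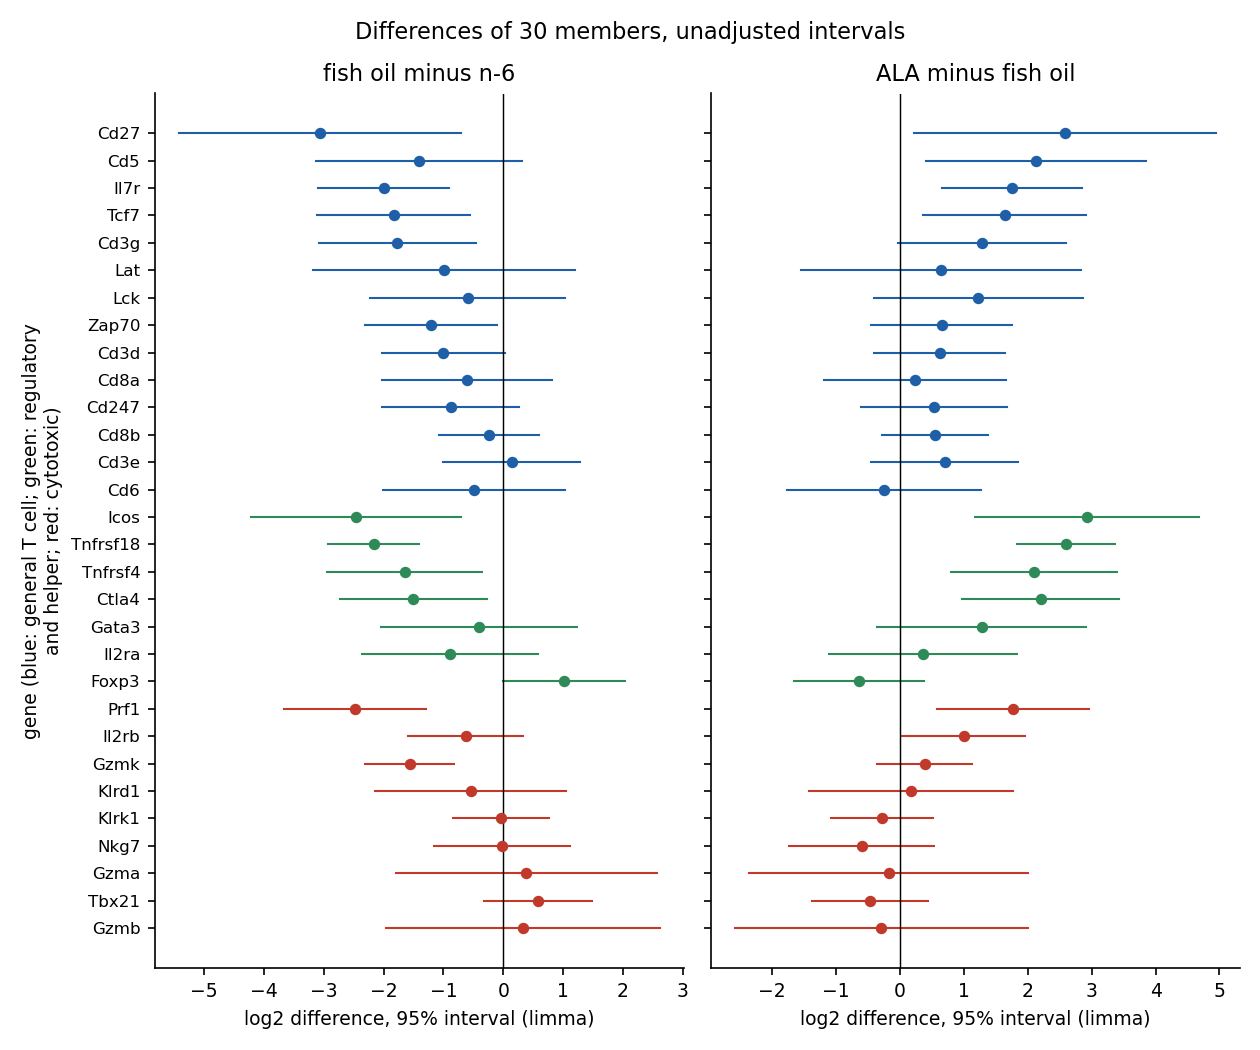
Log2 difference of each of the 30 members (dot) with its unadjusted 95% limma interval (line), for fish oil minus n-6 colitis (left) and ALA minus fish oil colitis (right), coloured by group of members. On the left most intervals of general (blue) and regulatory and helper (green) genes lie mainly below 0, on the right mainly above 0, and most cytotoxic genes (red) lie around 0 in both.

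Fish oil colitis against healthy colon compares rats that differ in both DSS and oil. All 14 general T cell genes that passed were lower in mean with fish oil colitis, Cd6 by -0.35 and Cd5, not well above background on either fish oil array, at least 2.24-fold, while 5 other members, among them Gzma, Gzmb and Foxp3, were higher in mean (50.4% of all genes were). The arrays did not overlap for 13 of the 14, Cd27 being the exception, and over all members for 17 lower and 3 higher, against 20.3% and 18.3% of all genes. Cd8b, among the 13, had passed the filter only through healthy colon. Cd6 is counted by its brightest probe. Its last probe, well above background on all 8 arrays, was higher in mean in fish oil colitis (-1.865 against -2.173), with overlapping arrays. Its second probe was lower in mean, but not well above background on either fish oil array. The median difference was -0.83 over the general genes, -0.35 over the regulatory and helper genes and -0.11 over the cytotoxic genes, with 0.0054 over all genes. Over 19 settings they ran from -0.99 to -0.45, -0.88 to 0.53 and -0.21 to 0.32. No member passed limma's adjusted threshold, nor did any gene (0% of those tested). At an unadjusted p under 0.05 there were 3 members lower and 0 higher, where 2.11% and 1.8% of all genes were: Tnfrsf18 at -0.92, Il2rb at -1.01 and Il7r at -1.12 (SE 0.32, 0.41 and 0.46, limma adjusted p = 0.995 for each). For Tnfrsf18, not well above background on either fish oil array and on 1 healthy array, the signal supports only a healthy level at least 1.11-fold higher. Gzmb was higher by 1.03 (SE 0.97, 95% interval -1.26 to 3.32), an interval that includes 0 although the arrays did not overlap.

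The level of a gene bears on this comparison. With normexp, 8 of 14 general genes were lower without overlap: Cd247, Cd3d, Cd3g, Cd6, Cd8a, Lat, Tcf7 and Zap70. The other 6, Cd27, Cd3e, Cd5, Cd8b, Il7r and Lck, then had a difference above 0, and the member median was 0.19 beside 0.24 over all genes. With normexp and without fish oil replicate 1, the dimmest array, 13 of 14 were lower again, and with normexp followed by quantile normalization 14 of 14. With normexp and no offset, 13 of 14 were lower and the member median was -0.30, beside 0.086 over all genes. Apart from normexp with its offset alone, these settings were chosen after seeing the data.

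**Figure D4:**
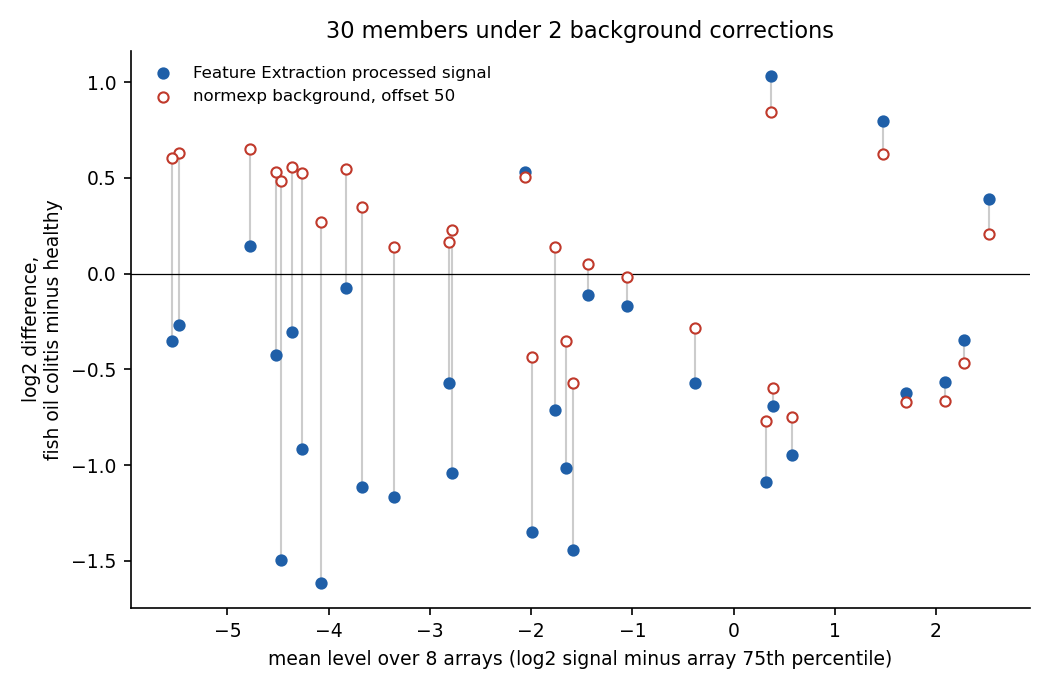
Log2 difference between fish oil colitis and healthy colon (vertical) against the mean level over 8 arrays (horizontal, log2 signal minus array 75th percentile) of the 30 members, with the scanner software's processed signal (filled) and with normexp background correction (open). For members at a mean level above 0 the pairs lie close together, and for most members below -3 the open point is above 0 and the filled point below it.

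ALA colitis against n-6 colitis asks the same of the plant n-3 oil. The arrays overlapped for all 14 general T cell genes, while 6 of 7 regulatory and helper genes were higher in mean with ALA, and 14 of all 30 members, where 56.1% of all genes were. The median difference was -0.35 over general, 0.45 over regulatory and helper and -0.32 over cytotoxic genes, against 0.068 over all genes. Over 19 settings they ran from -1.03 to 0.67, 0.043 to 0.62 and -0.91 to 0.071. None of the members passed limma's adjusted threshold, where 0.033% of genes (6) did. At an unadjusted p under 0.05, 1 member was lower and 0 higher, against 2.67% and 3.17% of all genes. That member was Gzmk, with a difference of -1.18 (SE 0.31, limma adjusted p = 0.832). The arrays did not overlap for 3 members higher (Ctla4 at 0.70, Gata3 at least 1.60-fold, as neither n-6 array was well above background for it, and Tnfrsf18 at 0.43) and 1 lower, against 16.8% and 13.2% of all genes. Ctla4 and Gata3 had passed the filter only through ALA colitis. Without ALA replicate 1 the member median was 0.34, without ALA replicate 2 it was -0.36, and without n-6 replicate 2 it was 0.022.

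ALA colitis against fish oil colitis sets the n-3 oils side by side. Regulatory and helper genes had a median difference of 2.10, and 5 of 7 were higher in ALA colitis without overlap. Ctla4 and Gata3 are among the 5 and passed the filter only through ALA colitis. The general T cell genes had a median of 0.67 (13 of 14 above 0, and 23 of all 30 members, against 50.8% of all genes) and the cytotoxic genes one of -0.18, against 0.013 over all genes. The general median was 1.74 without ALA replicate 1 and 0.13 without replicate 2, where 6 of the 14 were lower. Over 19 settings the regulatory and helper median ran from -0.16 (normexp) to 2.56 and the cytotoxic median from -0.35 to 0.17. None of the members passed limma's adjusted threshold, and 0% of all genes did. At an unadjusted p under 0.05, 10 members were higher in ALA colitis and 0 lower, where 6.51% and 3.01% of all genes were. The arrays did not overlap for 15 higher and 2 lower (Foxp3 and Nkg7), against 25.1% and 20.5% of all genes.

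Tnfrsf18 had the smallest p of any member in any comparison, with a difference of 2.60 (SE 0.32, 95% interval 1.84 to 3.37, limma adjusted p = 0.444) and at least 3.57-fold more signal in ALA colitis. Icos differed by 2.93 (SE 0.74) and was at least 3.14-fold higher, Ctla4 by 2.20 (SE 0.52) and at least 1.57-fold, and Tnfrsf4 by 2.10 (SE 0.55), each with a limma adjusted p of 0.48. Il7r differed by 1.76 (SE 0.46), Prf1 by 1.77 (SE 0.50) and Tcf7 by 1.64 (SE 0.54), with the same adjusted p from limma. Cd5 was at least 3.21-fold higher. With normexp the member median was 0.029, only 1 of 7 regulatory and helper genes was higher without overlap, and Ctla4 differed by -0.16, beside a shift of all genes to -0.18. Without ALA replicate 1 the member median was 1.34 and without replicate 2 it was 0.22.

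ALA colitis against healthy colon also differs in both DSS and oil. Tnfrsf18, Tnfrsf4 and Ctla4 were higher on both ALA arrays than on either healthy array, and the general and cytotoxic genes were spread around 0. Of the 30 members 18 were higher in mean, against 53% of all genes. The medians were 1.43 for regulatory and helper, 0.094 for general and -0.014 for cytotoxic genes, against 0.038 over all genes. Over 19 settings they ran from 0.19 to 1.55, -0.60 to 0.83 and -0.093 to 0.44. None of the members passed limma's adjusted threshold, and 0% of all genes did. At an unadjusted p under 0.05 there were 3 members higher and 0 lower, against 4.34% and 2.17% of all genes. They were Tnfrsf18 at 1.69 (SE 0.32, limma adjusted p = 0.643), Ctla4 at 1.94 (SE 0.52, limma adjusted p = 0.702, at least 2.80-fold higher) and Tnfrsf4 at 1.53 (SE 0.55, limma adjusted p = 0.744). Ctla4 had passed the filter only through ALA colitis. The arrays did not overlap for 8 members higher and 3 lower (Cd8a, Klrk1 and Nkg7), against 22.4% and 18% of all genes. The median over all members was 0.22, but 0.67 without ALA replicate 1 and -0.21 without replicate 2.

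Between n-6 colitis and healthy colon the oil is the same and DSS differs, as does the slide row. Gzmk, Prf1, Tnfrsf18 and Ctla4 were higher on both n-6 arrays than on either healthy array, and the CD3 chains were divided, with Cd3e lower and the other 3 higher. Of the 30 members 19 were higher in mean, against 51.7% of all genes. The medians were 1.04 for regulatory and helper, 0.23 for general and 0.24 for cytotoxic genes, against 0.028 over all genes. Over 19 settings they ran from 0.25 to 1.25, -0.074 to 0.36 and -0.32 to 0.49. None of the members passed limma's adjusted threshold, where 0.0385% of genes (7) did. At an unadjusted p under 0.05 there were 4 members higher and 0 lower, against 6.63% and 7.74% of all genes. Gzmk was higher by 1.49 (SE 0.31, limma adjusted p = 0.152), Tnfrsf18 by 1.25 (SE 0.32, limma adjusted p = 0.194), Prf1 by 1.43 (SE 0.50, limma adjusted p = 0.28) and Ctla4 by 1.24 (SE 0.52, limma adjusted p = 0.346, at least 1.73-fold). Cd27 was higher by 2.35 with an interval from -0.0091 to 4.71. The arrays did not overlap for 12 members higher and 5 lower (Cd3e, Cd8a, Foxp3, Il2rb and Lat), against 23.8% and 21.7% of all genes.

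The 6 comparisons share arrays: each group enters 3 of them, so a low fish oil pair or a split ALA pair appears in each of its 3. Tnfrsf18 differed by 1.25 in n-6 colitis and 1.69 in ALA colitis against the same healthy arrays. In fish oil colitis it was at least 1.11-fold lower on the processed signal, but higher with normexp (0.53). Foxp3 differed by -0.49, -0.11 and 0.53 in the same order, and Prf1 by 1.43, 0.73 and -1.04. Across 21 settings for each comparison, 0 members passed the adjusted threshold in any.

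**Figure D5:**
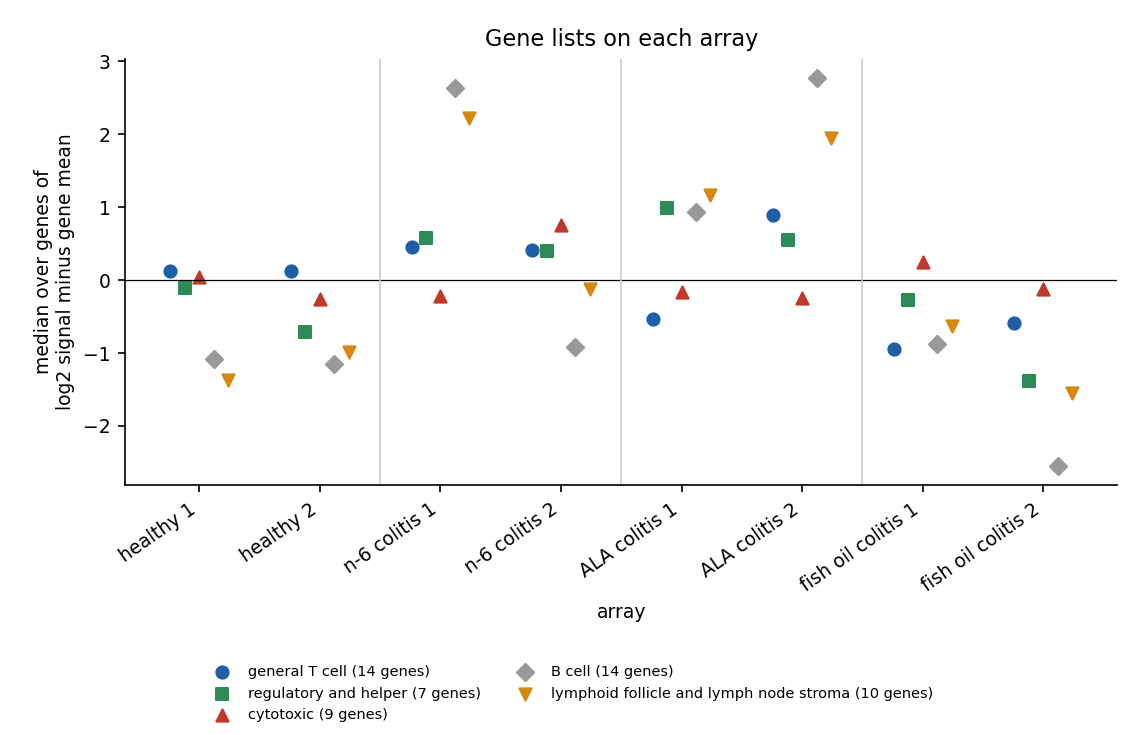
Median over genes of the deviation from each gene's own mean (log2) on each array, for the 3 groups of members and for B cell and lymphoid follicle marker lists. The B cell and follicle lists are high on n-6 replicate 1 and ALA replicate 2, where the general T cell median is 0.46 and 0.89, and also on ALA replicate 1 (0.93 and 1.16), where it is -0.54. B cell markers are low on n-6 replicate 2 (-0.91), where the general T cell median is 0.41.

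Markers of other cells moved over the same arrays. Summed B cell signal (14 of 14 markers passed), in multiples of each array's 75th percentile, was 6.39 and 4.85 in healthy colon, 85.7 and 6.17 in n-6 colitis, 25.0 and 70.7 in ALA colitis, and 6.37 and 3.16 in fish oil colitis. Summed general T cell signal (14 of 18) was 19.2 and 19.0, 24.5 and 25.7, 10.4 and 31.9, and 13.8 and 11.49 in the same order. The array with the most B cell signal of the n-6 pair did not have more summed T cell signal, whereas the ALA pair ranked alike on both. For the n-6 pair this depends on the measure. The median deviation of the general T cell genes was slightly higher on n-6 replicate 1 (0.46) than on replicate 2 (0.41). The lymphoid follicle list (10 of 11, without Cxcr5) was at 8.44 and 12.6 in healthy colon, 113.4 and 23.1 in n-6 colitis, 42.6 and 140.9 in ALA colitis, and 21.7 and 8.82 in fish oil colitis. The colonocyte list (16 of 16) summed to between 454 on n-6 replicate 1 and 1664 on fish oil replicate 1, with healthy arrays at 1021 and 1062. The part of these cells in the differences of T cell genes was not tested.

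Summed cytotoxic signal (9 of 10) had another order, 10.9 and 9.53 in healthy colon, 7.71 and 19.5 in n-6 colitis, 14.1 and 9.23 in ALA colitis, and 15.9 and 12.4 in fish oil colitis. The n-6 pair was at both ends of it, as for Gzma, which is itself part of the sum. Tbx21 was the brightest cytotoxic probe on every array but n-6 replicate 2, where Gzma was (2.99 against 2.31). The summed regulatory and helper signal was highest on ALA replicate 1 (2.73) and lowest on fish oil replicate 2 (0.54). Such sums are carried by the brightest probes, on ALA replicate 1 mostly that of Tnfrsf4, and do not describe each gene of a list.

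Genes that work with the members but are not among them were read from 4 lists: T cell receptor signalling (20 of 31 passed), T cell cytokines and their receptors (23 of 33), co-stimulation and checkpoint partners (15 of 21), and killer cell genes (15 of 27). None passed limma's adjusted threshold in any comparison. In fish oil against n-6 colitis, the numbers lower and higher at an unadjusted p under 0.05 were 5 and 1 for receptor signalling, 4 and 1 for cytokines and receptors, 2 and 0 for co-stimulation, and 5 and 0 for killer cell genes, where 6.01% and 6% of all genes were. Tnfrsf9, a further TNF receptor family member of activated T cells, was at -2.86 and -3.64 in n-6 colitis and -4.94 and -6.35 in fish oil colitis, where it was not well above background on either array. The n-6 signal was at least 3.17-fold higher. It was at -3.15 and -2.58 in ALA colitis, at least 4.15-fold above fish oil. Its ligand Tnfsf9 differed by -2.40 between fish oil, where 1 array was well above background, and n-6 colitis, with n-6 replicate 1 at 0.16 and replicate 2 at -2.19. Cxcr3, the receptor that guides effector T cells to interferon-induced chemokines, was not well above background in fish oil colitis (-5.78 and -5.94) and lay between -4.58 and -2.72 on the other 6 arrays, with n-6 signal at least 1.83-fold higher.

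Ifng, the interferon of type 1 and cytotoxic lymphocytes, was lower in colitis. It was at -3.98 and -3.80 in healthy colon, -5.70 and -5.31 in n-6 colitis, -4.85 and -4.56 in ALA colitis, and -5.50 and -5.77 in fish oil colitis. All 6 colitis arrays lay below both healthy arrays, but it was well above background on 0 n-6, 0 fish oil and 1 ALA array. Healthy signal was at least 2.87-fold higher than in n-6 colitis (limma adjusted p = 0.132) and at least 2.04-fold higher than in fish oil colitis. Prf1 and Gzmk were higher than healthy in n-6 colitis, while in fish oil colitis Prf1 was lower. Xcl1, a chemokine of activated CD8 T and killer cells, was lower than in healthy colon in both fish oil and n-6 colitis. It was at -0.66 and -0.57 in healthy colon, -2.18 and -1.21 in n-6 colitis, -0.62 and -1.56 in ALA colitis, and -2.24 and -2.27 in fish oil colitis. Ctsw, a protease of cytotoxic cells, was not well above background in fish oil colitis (-4.76 and -5.14) and lay between -4.70 and -2.24 on the other arrays, with n-6 signal at least 3.22-fold higher. Tyrobp, an adaptor of killer cell receptors that macrophages also use, was higher in n-6 colitis, at 3.85 and 3.54 against 1.96 and 1.77 in healthy colon, a difference of 1.83 (SE 0.34).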

How the data were processed

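Total colon RNA was labelled with Cy3 and hybridised to 8 Agilent 1-colour arrays. The scanner files hold spot intensity values from Agilent Feature Extraction 11.5.1.1, per the file headers, background-subtracted and not scaled between arrays. The authors' deposited value table holds log2 values. It matched the log2 processed signal of each array at r = 0.982 to 0.99 across 18178 symbols, which gives its direction and base, and its column medians of -3.18 to -2.89 and 75th percentiles of 0.0032 to 0.009 show the centring. It served as an alternative.

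Controls and outlier spots were dropped and replicate spots averaged. The level is log2 of the processed signal minus the array's 75th percentile. A gene was represented by its passing probe with the highest mean, which left 18171 genes of 20801 probes. All 4 groups were fitted with limma 3.58.1 in R 4.3.3 (4 residual and 3.01 prior degrees of freedom), with Benjamini-Hochberg adjustment over all genes at 0.05. The code was tested on simulated data. Gene names came from the files and from RefSeq genes of GRCr8. The members and lists were chosen with earlier results of these data known, so counts and medians over them carry no test. Members named with values on every array are those with the smallest unadjusted p under 0.05 without overlap, up to 6 per comparison, and the brightest 3 of each group; others were added after their values were seen. For genes outside the set, up to 4 of a list per comparison are named by the same order. Alternatives changed background correction, scaling, filter, probe choice, prior, replicate block, groups fitted and arrays left out.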

Additional observations from a re-analysis of the deposited data

How the results depend on the processing

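No member passed limma's adjusted threshold in any of 126 refits over the 6 comparisons. Of the medians over members and their groups, 404 stayed within the spread between replicates and 52 moved beyond it, and of named members 458 kept their direction and 6 reversed. The 404 and the 458 include the replicate block, which could change no member's difference. The 458 also include the changes of prior and of groups fitted, which could change none either. With 2 arrays a group, leaving out 1 assumes that the lone array varies like the other groups. The median over all members then ran from 0.32 to 0.42 (n-6 against healthy) and -0.36 to 0.34 (ALA against n-6). For fish oil it ran from -1.12 to -0.88 against n-6 and -0.65 to -0.42 against healthy. For ALA it ran from -0.21 to 0.67 against healthy and 0.22 to 1.34 against fish oil. The ALA medians turned in sign without ALA replicate 1 or 2, and against n-6 also without n-6 replicate 2 (0.022). The counts without overlap ran from 13 to 15 (general, fish oil lower than healthy), 10 to 13 (general, fish oil lower than n-6) and 5 to 6 (regulatory and helper, ALA higher than fish oil). Leaving out an array makes both non-overlap and the filter easier to meet. These counts could therefore hardly fall, and their ranges do not show stability.

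Normexp, which adds an offset of 50, moved the fish oil comparisons: the member median was 0.025 against n-6, 0.19 against healthy and 0.029 for ALA against fish oil. Followed by quantile normalization these were -0.40, -0.19 and 0.33. With no offset the medians were -0.55 against n-6, -0.30 against healthy and 0.57 for ALA against fish oil. Without fish oil replicate 1, normexp gave -0.36 against n-6 and -0.21 against healthy. The count of general genes lower than healthy was 8 with normexp. That of regulatory and helper genes higher with ALA than fish oil was 1 with normexp, 3 with no offset, and 1 of the 2 left when signal was required on all 8 arrays. Reversed with normexp were Tnfrsf18 (0.068 against n-6, 0.53 against healthy), Il7r (0.35 against healthy) and Ctla4 (-0.16 for ALA against fish oil). Tnfrsf18 against healthy also reversed with normexp and no offset (0.032), and with normexp and without fish oil replicate 1 (0.036). The no-offset setting, the combined settings and all counts without overlap were chosen after seeing the data.

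Replicate numbers do not pair the arrays: correlations of same-numbered deviations ran from -0.17 to 0.47. Each group holds both replicate numbers, so the replicate block could not move the member medians, such as -0.89 for fish oil against n-6. It changes only the spread. With it 0 members were called in all 6 comparisons, and the genes called numbered 13 in place of 7 for n-6 against healthy and 0 in place of 6 for ALA against n-6.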

Other observations

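Other cells of the inflamed colon had orders of their own. Macrophage markers (11 of 12 measured) were higher in median in every colitis group than in healthy colon, by 1.07 in n-6, 0.89 in ALA and 0.65 in fish oil colitis, and fibroblast markers (7 of 8) by 1.03, 0.19 and 0.036. Neutrophil markers (6 of 11) were higher by 1.88, 1.63 and 0.95. Smooth muscle markers (8 of 8) differed by 0.036, -0.23 and 0.28, and mast cell markers (7 of 9) by 0.79, -0.04 and 0.51. None of these markers passed limma's adjusted threshold, and the 3 differences share the healthy arrays.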
